A study of Homo sapiens with 43 samples.

Results

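The regions described here carried a new peak of RNA polymerase II phosphorylated at serine 5 (Ser5P) at the end of a protein-coding gene after 2 h of CDK-TCIP1. They were found by merging the Ser5P peaks of 2 DMSO lists and 2 CDK-TCIP1 2 h lists that shared at least 1 bp on chromosomes 1 to 22 and X. A region was kept when both 2 h lists held a peak in it, neither DMSO list did, and it lay within 1 kb of either end of a protein-coding gene. This gave 542 gained gene-end regions at 641 genes, out of 9290 merged regions at gene ends (5.83%) and 24039 merged regions in all. Over all merged regions, wherever they lay, 922 (3.84%) met the same rule on peaks. The presence of the 2 h peaks and the absence of the DMSO peaks chose these regions, so neither is a finding, and the Ser5P values at 2 h are given as a description only.

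CDK-TCIP1 joins a binder of CDK9, a transcriptional kinase, to a binder of BCL6, a repressor of germinal-centre B cells, in a single small molecule. SUDHL5 and KARPAS422 are cell lines from diffuse large B-cell lymphoma, and cells received 0.1% DMSO or 30 nM CDK-TCIP1 before chromatin immunoprecipitation with sequencing. In SUDHL5, Ser5P (antibody ab5131), serine 2-phosphorylated polymerase (Ser2P, ab5095) and polymerase labelled only as Pol II (8WG16) were mapped. This was done in DMSO at 4 h and in CDK-TCIP1 at 2 h and 4 h, with 2 lists a group and 3 for Pol II. CDK9 was mapped at 2 h in DMSO and CDK-TCIP1, by 2 antibodies in SUDHL5 (ab239364 and CST2316S, the second spelled CST2361S in the protocol) and by the second alone in KARPAS422, again with 2 lists a group. The labels place the CDK9 DMSO samples at 2 h, which is followed here, but the names of their deposited lists say 0 h, so the time of these controls is uncertain. The DMSO lists of all 3 polymerase forms were made at 4 h only, so the 2 h lists differ from them in time as well as in treatment, and the 2 h and 4 h comparisons share them. The labels do not say whether replicates were separate cultures, so the spread between lists may be technical.

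The polymerase carries a tail of repeated heptapeptides. Serine 5 of the repeat is phosphorylated around initiation, mainly by CDK7 of the initiation factor TFIIH, and Ser5P is known to peak near gene starts. CDK9, within P-TEFb, phosphorylates pausing factors and the tail and lets the paused polymerase move into the gene, and Ser2P is known to build up over gene bodies and past gene stops. BCL6 binds DNA through zinc fingers and recruits corepressors that keep genes of cell-cycle arrest, cell death and plasma-cell differentiation low in germinal-centre B cells.

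Regions where Ser5P peaks appeared are shown first, by promoter windows that lie inside them. Chosen were the promoters of the best-ranked gained regions that hold a whole window. They are the APLP2, MAP3K3 and ELAC2 promoters and the divergent pair FERRY3 and RAD51AP1, together with the EME1 and MRPL27 pair, which is the best-ranked region of a mitochondrial ribosomal protein gene. Each sequence runs 5′ to 3′ on the gene's strand from 250 bases before to 50 bases after the RefSeq gene start (GRCh38.p14), and capitals mark every match, on either strand, to any of the 13 motifs searched.
APLP2, plus strand, chr11:130070318-130070617: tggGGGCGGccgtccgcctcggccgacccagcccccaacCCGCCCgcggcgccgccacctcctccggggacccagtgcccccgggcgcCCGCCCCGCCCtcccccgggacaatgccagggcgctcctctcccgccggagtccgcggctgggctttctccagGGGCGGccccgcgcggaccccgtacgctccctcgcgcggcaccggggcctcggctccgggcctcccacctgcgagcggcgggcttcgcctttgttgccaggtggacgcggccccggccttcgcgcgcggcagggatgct
MAP3K3, plus strand, chr17:63622167-63622466: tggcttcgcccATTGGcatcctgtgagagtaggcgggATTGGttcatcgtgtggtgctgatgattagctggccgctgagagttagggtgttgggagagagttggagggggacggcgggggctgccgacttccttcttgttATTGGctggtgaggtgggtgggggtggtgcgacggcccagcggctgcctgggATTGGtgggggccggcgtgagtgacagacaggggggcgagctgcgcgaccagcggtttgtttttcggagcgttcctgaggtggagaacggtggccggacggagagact
ELAC2, minus strand, chr17:13017978-13018277: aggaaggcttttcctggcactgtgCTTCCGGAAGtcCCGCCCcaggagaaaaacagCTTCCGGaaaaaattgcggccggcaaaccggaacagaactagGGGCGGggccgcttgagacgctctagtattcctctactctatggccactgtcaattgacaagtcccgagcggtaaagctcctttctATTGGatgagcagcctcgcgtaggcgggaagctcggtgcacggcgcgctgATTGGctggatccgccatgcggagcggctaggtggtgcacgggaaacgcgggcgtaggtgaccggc
FERRY3, minus strand, chr12:4538420-4538719: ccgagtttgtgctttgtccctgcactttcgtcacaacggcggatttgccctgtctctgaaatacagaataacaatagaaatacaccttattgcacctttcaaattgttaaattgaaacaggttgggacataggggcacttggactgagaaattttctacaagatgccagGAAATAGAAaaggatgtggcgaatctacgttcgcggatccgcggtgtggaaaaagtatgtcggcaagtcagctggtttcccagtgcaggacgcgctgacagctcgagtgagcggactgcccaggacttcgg
RAD51AP1, plus strand, chr12:4538640-4538939: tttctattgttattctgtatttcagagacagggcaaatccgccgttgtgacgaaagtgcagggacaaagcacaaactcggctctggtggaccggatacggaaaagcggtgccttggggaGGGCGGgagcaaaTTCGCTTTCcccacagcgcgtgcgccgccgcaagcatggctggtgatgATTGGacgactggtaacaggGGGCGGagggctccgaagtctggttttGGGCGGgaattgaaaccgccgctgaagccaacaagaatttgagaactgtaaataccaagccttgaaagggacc
EME1, plus strand, chr17:50372979-50373278: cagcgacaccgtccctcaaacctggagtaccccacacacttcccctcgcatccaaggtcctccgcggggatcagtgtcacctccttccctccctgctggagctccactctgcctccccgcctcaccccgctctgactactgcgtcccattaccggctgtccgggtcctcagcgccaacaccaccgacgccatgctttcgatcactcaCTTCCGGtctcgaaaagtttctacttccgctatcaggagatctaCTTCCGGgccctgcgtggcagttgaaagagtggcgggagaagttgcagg
MRPL27, minus strand, chr17:50373135-50373434: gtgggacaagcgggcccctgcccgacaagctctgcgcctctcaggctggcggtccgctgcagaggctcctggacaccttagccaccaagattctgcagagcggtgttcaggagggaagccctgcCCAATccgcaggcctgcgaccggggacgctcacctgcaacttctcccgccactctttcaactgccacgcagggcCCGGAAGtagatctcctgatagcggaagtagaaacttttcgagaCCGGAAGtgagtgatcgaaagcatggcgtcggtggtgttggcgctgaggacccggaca
The APLP2 window had a GC content of 80.7% and matched only the GC box, GGGCGG. The MAP3K3 window matched only the CCAAT box, and the ELAC2 window matched the ETS core CCGGAAG, the GC box and the CCAAT box. The highest points of the 2 h Ser5P peaks lay outside the window at MAP3K3 (-556 and -526 bp from the start) and ELAC2 (108 and 52 bp). At APLP2 they lay inside it (38 and 36 bp). FERRY3 and RAD51AP1 start 421 bp apart on opposite strands, so that 1 gained region held both starts. EME1 and MRPL27 start 45 bp apart on opposite strands, and the same CCGGAAG matches are in both windows.

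A promoter window was matched for 405 genes with a gained region, among 15811 protein-coding genes in the table. Their median GC content was 65.7%, equal to that of the 3874 promoters at gene-end regions with a Ser5P peak in all 4 lists (called constant regions from here on) and above the 62.7% of all promoters. The GC box GGGCGG was in 75.8% of the windows at gained regions, 73.3% at constant regions and 58.5% of all. The ETS core CCGGAAG was in 29.4%, 24.2% and 14.2%, and the TATA box TATAAA in 3.46%, 5.78% and 9.64%. The CCAAT box was in 38.3%, 39.0% and 36.3%, and the E-box CACGTG in 10.6%, 12.3% and 8.87%. For each of these 5 motifs the share at gained regions was nearer to that at constant regions than to that of all promoters, for the E-box by less than 0.1 percentage points. The BCL6-type motif TTCCTNGAA was in 2 of the 405 windows (0.494%), against 0.749% at constant regions and 1.30% of all promoters. The YY1 core AAGATGGCG was in 5.93%, 5.45% and 2.75%, and the NRF1 core GCGCATGCG in 5.68%, 5.03% and 2.76%. The ZBTB33-type motif TCTCGCGAG was in 1.98%, 2.86% and 1.05%, the cAMP response element TGACGTCA in 3.46%, 4.08% and 2.59%, and the IRF repeat GAAANNGAA in 8.89%, 6.84% and 7.07%. Also lower at gained regions than in all promoters were the AP-1 motif TGANTCA (2.47%, 3.66% and 5.76%) and the STAT-type palindrome TTCNNNGAA (4.20%, 5.86% and 6.98%). Matches are letters on either strand and not sites of binding; an ETS match can overlap a second one on the other strand, and a BCL6-type match is also a STAT-type one.

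Gained regions were narrower than constant ones and lay mostly at gene starts. Their median width was 747.5 bp, with a range of 354 to 3851 bp, against 1789.5 bp for the 4436 constant regions. It was 711 bp for regions gained over 1 kb from any gene end (called far gained from here on). A constant region joins peaks of 4 lists and a gained one those of 2, so part of the gap in width follows from the rule. Strand was known for at least 1 nearby gene end in 451 of the 542, and 435 of these (96.5%) were at a gene start and 16 (3.55%) at a gene stop alone. The share at a start was 91.3% in constant regions and 81.0% in all gene-end regions. In the 125 gene-end regions lost at 2 h (both DMSO lists, neither 2 h list; 1.35% of gene-end regions) it was 21.5%, and 78.5% lay at a gene stop alone. Gained and lost gene-end regions thus lay at opposite ends of genes, as a description of these 4 lists.

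The gene end itself was inside 407 of the 542 gained regions. In all, 436 regions were near 1 gene, 102 near 2, 3 near 3 and 1 near 4, and starts on both strands lay within 1 kb of 61 of the 451 (13.5%), against 14.9% of constant regions. The median gene length was 32.5 kb for genes with a gained region, 25.8 kb for genes with a constant region, 14.1 kb for genes with a lost region and 24.2 kb for all protein-coding genes. Per chromosome, between 2.33% (chromosome 21) and 9.64% (chromosome X) of the gene-end regions were gained.

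Summits, the highest point of each peak, sat just inside the gene. In the 435 regions at a known start, the median summit was 63 bp downstream of the start in replicate 1 and 56 bp in replicate 2, and 67.4% and 66.7% of summits were downstream. Within 500 bp of the start lay 79.1% and 79.3% of the summits. In constant regions the medians were 73 and 70 bp and the shares 78.2% and 79.1%. Gained regions therefore had their summits at nearly the same distance from the start as constant regions, in both 2 h lists.

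**Figure D1:**
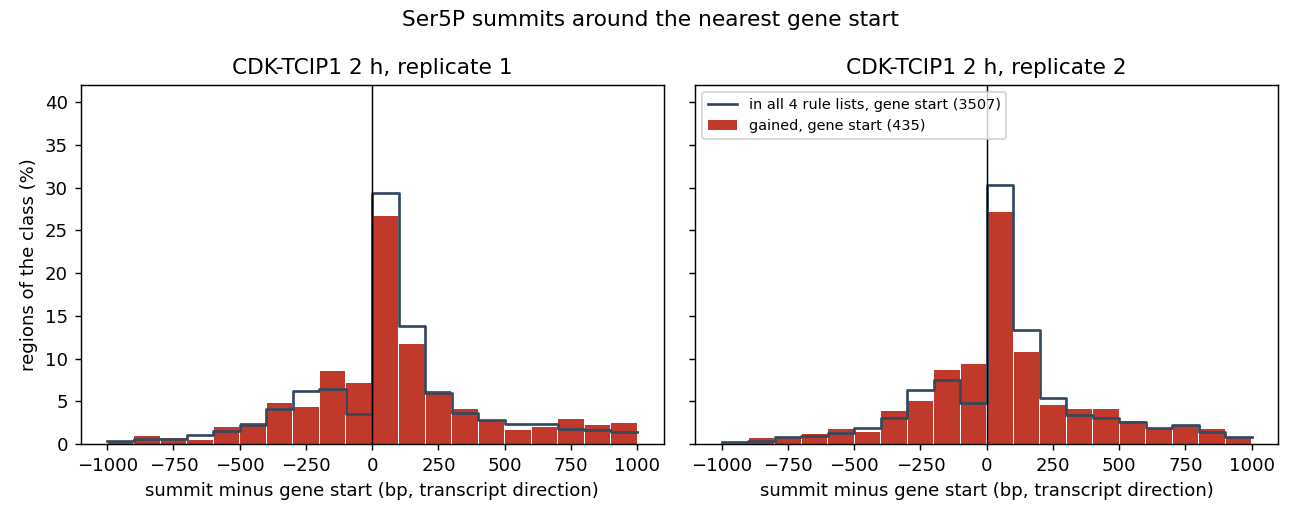
Share of regions (%, vertical axis) by distance of the Ser5P summit from the nearest gene start in 100 bp steps (horizontal axis, bp in the direction of transcription), for 435 gained regions (bars) and 3507 constant regions (line) in each 2 h list. Both sets have their highest share in the first 100 bp after the start, and summits over 1 kb away are not drawn.

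Peaks at gained regions were of middling to low strength in their own lists. The authors' fold enrichment (peak over local background, comparable within 1 list only) had a median of 4.82 in replicate 1 (range 2.09 to 20.6) and 5.09 in replicate 2 (2.31 to 12.7). At constant regions the medians were 8.21 and 8.30, and at far gained regions 4.16 and 4.17. Ranked by the authors' -log10 q, the median gained region stood in the top 56.0% and 56.9% of the 2 h lists. The median constant region stood in the top 21.9% and 23.3%, and the median far gained one in the top 65.3% and 71.7%. Some gained regions sat close to the limits of the rule. The weakest inside it were at GOPC, IGHMBP2/MRPL21 and ACER2, each with a -log10 q of 1.30 in replicate 1. Just outside were regions at RNASEK, MCOLN1/PNPLA6 and DUSP6, each with 1 DMSO peak at a -log10 q between 1.30 and 1.34. The farthest inside lay 998 bp (PSD4), 988 bp (SP7) and 965 bp (TAPT1) from a gene end, and the nearest outside at 1036 bp (SFR1), 1065 bp (POLH) and 1076 bp (XPO7).

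The nearest DMSO Ser5P peak lay a median of 37435 bp away. It was over 10 kb away for 402 gained regions and within 2 kb for 62, the closest 3 bp away at EGR3. Of the 641 genes, 129 had a DMSO peak in another region at one of their ends. Regions with a peak in both 2 h lists and in 1 DMSO list were more frequent than the gained ones: 914 held a peak in DMSO replicate 1 alone and 309 in DMSO replicate 2 alone. Without DMSO replicate 1, whose list had 17784 peaks against 11782 in replicate 2, the rule found 1460 regions, and without DMSO replicate 2 it found 852. Without 2 h replicate 1 it found 1241 and without 2 h replicate 2 it found 1081.

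The leading gained region by rank over both 2 h lists lay 298 bp from the start of SAMD4B (chr19:39341691-39342123), which encodes an RNA-binding protein of the Smaug family. Its authors' fold enrichment was 10.8 and 12.7 at 2 h, and at 4 h it had a peak in replicate 2 alone, with a fold of 8.98. The next region lay at the divergent starts of NOSIP, an E3 ubiquitin ligase that interacts with nitric oxide synthase, and PRRG2 (chr19:49580304-49580699). Its folds were 10.2 and 8.57 at 2 h and 8.15 and 9.55 at 4 h. The third was at the start of APLP2, a relative of the amyloid precursor protein (chr11:130069763-130071110), with folds of 20.6 and 10.9 at 2 h and 10.3 and 11.1 at 4 h. No CDK9 or Pol II list held a peak in these 3 regions.

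Peaks of CDK9 were found at some of the other leading regions. ELAC2, the mitochondrial and nuclear tRNA 3′ endonuclease (chr17:13017579-13018503), had Ser5P folds of 10.3 and 8.30 at 2 h and 6.80 and 8.74 at 4 h. CDK9 peaks were there in 1 DMSO and 1 treated list of ab239364 and in both treated lists of KARPAS422. The FERRY3/RAD51AP1 region (chr12:4538115-4539242) held CDK9 by ab239364 in all 4 lists. With CST2316S it held CDK9 only in the 2 treated lists, in SUDHL5 and in KARPAS422 alike. MAP3K3, a kinase of the MAP kinase cascades (chr17:63621571-63622546), had folds of 10.3 and 12.7 at 2 h, a peak in 4 h replicate 2 alone and none of CDK9 or Pol II. DBR1, the lariat-debranching enzyme of intron turnover (chr3:138174151-138175070), had folds of 11.6 and 7.99 at 2 h and 9.85 and 8.22 at 4 h. It is the one among the 15 best-ranked with Pol II peaks in DMSO (replicates 2 and 3).

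The remaining 8 of the 15 best-ranked regions were at TNFRSF10D, a decoy receptor of the death ligand TRAIL, FOXJ3, CREG1, PYGO1, IMPA1, NUAK2, ZNF572 and COL19A1. Their mean rank was in the top 17.2% to 19.6% of the 2 h lists. At TNFRSF10D the folds were 9.94 and 11.6 at 2 h and 11.3 and 12.3 at 4 h. In SUDHL5 both treated CST2316S lists held CDK9 there while neither DMSO list of that antibody did. In KARPAS422, DMSO replicate 1 and both treated lists held it. NUAK2, an AMPK-related kinase, had the widest gained region (3851 bp, chr1:205318140-205321990), with folds of 7.82 and 8.38 at 2 h and 5.35 and 7.92 at 4 h. The other 4 of the 5 widest were at CDK6 (3355 bp), a kinase of the passage from G1 to S phase, AUTS2 (3128 bp), PLEKHA2 (3057 bp) and BCL9L/CXCR5 (3030 bp). All 5 had Ser5P peaks in both 4 h lists, which a wide region holds more easily.

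**Figure D2:**
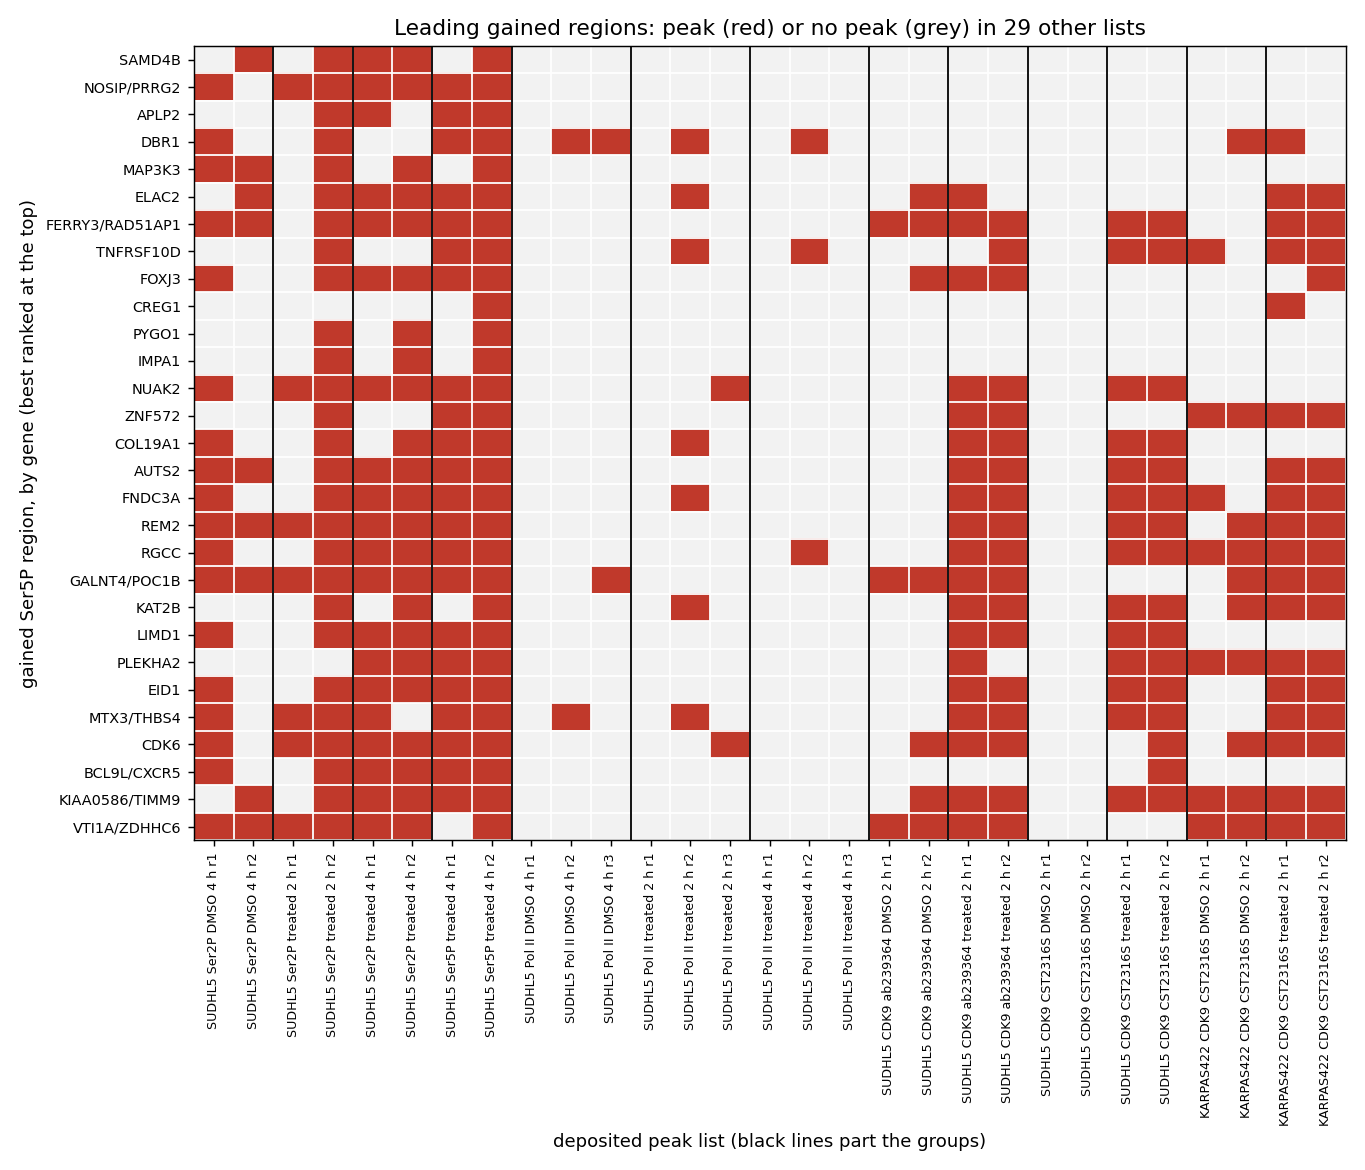
Peak (red) or no peak (grey) of 29 other lists (columns, grouped by black lines) at 29 of the 30 gained regions that were best ranked, widest, held by most lists or gained in both SUDHL5 CDK9 sets (rows, by gene, best 2 h rank at the top). The Ser5P columns and, other than DMSO replicate 2 and 2 h replicate 1, the Ser2P columns are filled for most rows, Pol II columns for few, and the 2 DMSO columns of CST2316S in SUDHL5 for none.

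At 4 h, 166 of the 542 gained regions (30.6%) had a Ser5P peak in both lists, 282 in 1 and 94 in neither. Replicate 1 held 184 (33.9%) and replicate 2 held 430 (79.3%), from lists of 10816 and 14237 peaks. The value thus rests on replicate 1, and it is 79.3% with replicate 2 alone. Among all 1687 gene-end regions without a DMSO peak, which include the gained ones, 14.5% had a peak in both 4 h lists. The share was 6.81% in the 1145 regions with a peak in 1 of the 2 h lists and none in DMSO, and 2.33% in the 946 with a peak in 1 DMSO list and none at 2 h. It was 89.7% in constant regions, 7.20% in the 125 lost regions and 29.7% in the 380 regions gained over 1 kb from a gene end. The gained regions were held by both 4 h lists more often than the other gene-end regions without a DMSO peak and less often than constant regions. Constant regions were also wider, and the part of width was not tested. Replicate 1 alone held more of the far gained regions (38.2%) than of the gained gene-end ones. No test is given, since both times share the DMSO lists.

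Regions ranked higher at 2 h were held more often at 4 h. With the regions cut into 4 groups of equal size by 2 h rank, 45.6% of the best-ranked group had a peak in both 4 h lists, and of the following ones 32.6%, 22.96% and 21.3%. Median width was 910.5 bp in the 166 regions held by both 4 h lists, 696.5 bp in the 282 held by 1 and 672.5 bp in the 94 held by neither. A wider region more easily shares a base with a peak, and the part of this in the trend was not tested. Among those with a known strand, a gene start lay within 1 kb of 97.8% of the first and 89.6% of the last. Median folds at 4 h, where a peak was present, were 4.60 in replicate 1 and 5.07 in replicate 2.

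**Figure D3:**
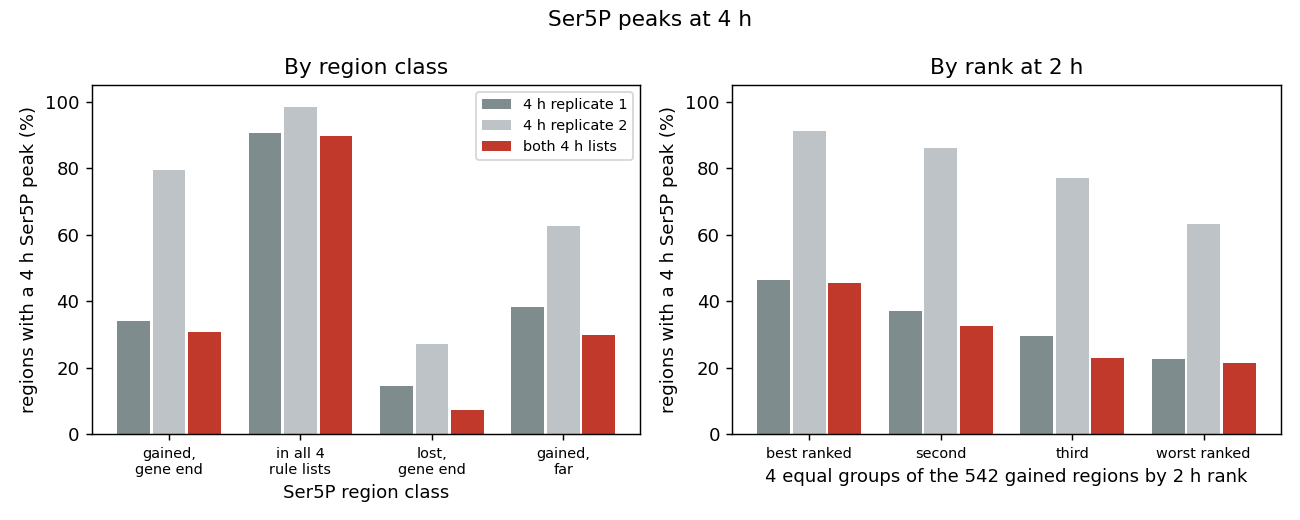
Share of regions with a 4 h Ser5P peak (%, vertical axis) in replicate 1, replicate 2 and both lists, for 4 region classes (left) and for 4 groups of the 542 gained regions by 2 h rank (right). Replicate 2 held more than replicate 1 in each class and group, and the share in both lists was 45.6% in the best-ranked group and 21.3% in the worst-ranked.

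Ser2P was present in DMSO at some gained gene-end regions, less often than at constant or lost ones and more often than at far gained ones. Constant and lost regions were also wider (medians 1789.5 and 1019 bp against 747.5 bp), and the part of width was not tested. The 2 DMSO lists held 91.4% and 81.4% of constant regions and 89.6% and 87.2% of lost ones. Of far gained regions they held 30.3% and 17.9%. The DMSO lists held a Ser2P peak at 55.2% and 28.0% of the 542, the 2 h lists at 9.96% and 63.1%, and the 4 h lists at 57.0% each. At 2 h, replicate 1 stood apart with 6519 peaks against 16170 in replicate 2, and the 2 h lists lay on either side of the DMSO lists. The mean change at 2 h was -5.07 percentage points (36.5 ± 37.6 after CDK-TCIP1 and 41.6 ± 19.2 in DMSO, SD, n = 2 each; exact two-sided permutation p = 1). Without 2 h replicate 1 the change was +21.5 points and without DMSO replicate 1 it was +8.49 points, so its direction rests on both of these lists.

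At 4 h both Ser2P lists lay above both DMSO lists, though only 1.85 points above DMSO replicate 1. The mean was 41.6 ± 19.2 percent of the regions in DMSO and 57.0 ± 0 percent at 4 h (SD, n = 2 each), a difference of 15.4 points with an exact two-sided permutation p of 0.33, the smallest that 2 against 2 lists allow. Adjusted over the 7 comparisons the permutation p was 0.56, so no change passed the test. With lists cut to equal length by q, DMSO held 30.8% and 24.2% and 4 h held 51.3% and 57.0%, a difference of 26.7 points. Of all peaks in the whole lists, 34.1% and 40.3% lay at gene ends in DMSO and 47.3% and 53.25% at 4 h. The part of this in the difference at equal length was not tested. Constant regions differed by 13.9 points at equal length (77.3% to 91.1%) and far gained regions by 21.4 points (15.7% to 37.1%). Leaving out DMSO replicate 2 brought the difference at full length down to 1.85 points. A Ser2P peak in both 4 h lists and neither DMSO list was present at 42 gained regions (7.75%), against 3.13% of all gene-end regions, and the reverse at 5 (0.923%), against 2.60%. Of these 42, 12 had Ser5P peaks in both 4 h lists (28.6%), close to the 30.6% of all gained regions. At 2 h such calls were 2 gained (0.369%, background 0.323%) and 9 lost (1.66%, background 4.45%).

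Total polymerase was seldom called at these regions. Pol II lists were short (138 to 4000 peaks), and 110 of the 542 regions had a Pol II peak in any of the 9. The share of other regions with a peak in any of the 9 was not taken, so 110 is a description only. DMSO lists held 0%, 3.87% and 2.03% of them, the 2 h lists 0.369%, 10.7% and 4.06%, and the 4 h lists 0%, 5.72% and 0.369%. With replicates paired by number, the share was higher at 2 h in 3 of 3 pairs, by a mean of 3.08 points (exact two-sided permutation p = 0.4 without the pairing and 0.25, the smallest 3 pairs allow, with it). Without 2 h replicate 2 the mean difference was 0.246 points. The 2 h list was the longer one in each pair, and with lists cut to equal length the difference was 0.184 points (0.184% in DMSO and 0.369% at 2 h). At 4 h the mean differed by 0.0615 points (exact two-sided permutation p = 1). By replicate number, the 4 h share was equal to DMSO in replicate 1, higher in replicate 2 and lower in replicate 3. No region had a Pol II peak in all 3 treated and no DMSO list at either time, against 0.301% of gene-end regions at 2 h and 0.0% at 4 h, and none had the reverse, against 0.0108% and 0.0431%. Of the constant regions, which were wider, the DMSO lists held 10.7% to 43.6% and the 2 h lists 19.4% to 54.6%. The part of width in these shares was not tested.

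CDK9 was found more often at gained regions after CDK-TCIP1, in lists that were also longer. With ab239364 in SUDHL5, the DMSO lists held 3.69% and 14.8% of the 542 regions and the treated lists 31.4% and 33.8%. The means were 9.23 ± 7.83 and 32.6 ± 1.70, a difference of 23.3 points (SD, n = 2 each; exact two-sided permutation p = 0.33, the smallest possible; adjusted 0.56). With CST2316S the DMSO lists held 0.185% (1 region) and 0%, and the treated lists 9.41% and 9.23%, a difference of 9.23 points with the same permutation p. In KARPAS422 the DMSO lists held 13.1% and 18.8% and the treated lists 38.7% and 25.8%, a difference of 16.3 points with the same permutation p. In each of the 3 sets both treated lists were above both DMSO lists, and no difference passed the test, which could not reach 0.05.

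List length moved with these differences. The DMSO lists of ab239364 had 915 and 3508 peaks and the treated ones 9262 and 11148. For CST2316S in SUDHL5 the lengths were 1611 and 1264 against 10005 and 9761, and in KARPAS422 6689 and 7804 against 14554 and 10297. With only the top 915 peaks of each ab239364 list, DMSO held 3.69% and 6.46% of the gained regions and the treated lists 3.69% and 2.40%, a difference of -2.03 points. With the top 1264 of CST2316S, the treated lists held 0.554% and 0.369%, a difference of 0.369 points. With the top 6689 in KARPAS422, DMSO held 13.1% and 16.2% and the treated lists 15.9% each, a difference of 1.20 points. The comparison at equal length covers only the best-ranked peaks of the longer lists, and the part of list length in the CDK9 differences was not tested.

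**Figure D4:**
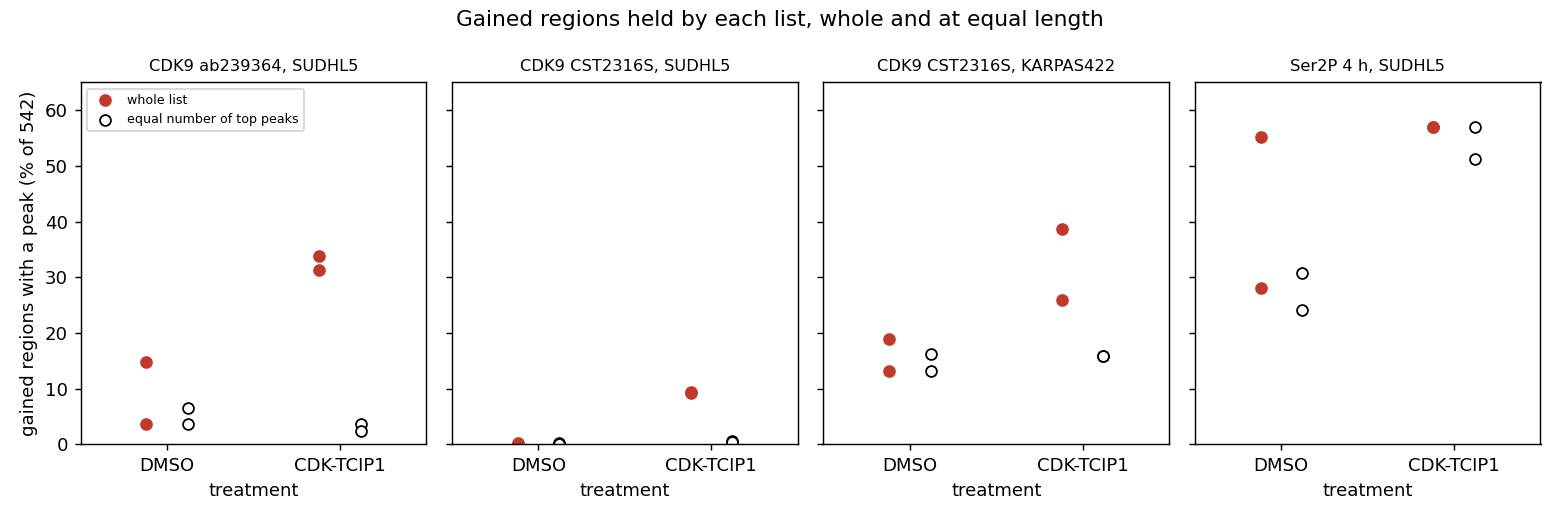
Share of the 542 gained regions with a peak (%, vertical axis) in each DMSO and CDK-TCIP1 list (1 point a list) for 3 CDK9 sets and for Ser2P at 4 h, with the whole lists (red) and with lists cut to the shortest of their set by q (open). The CDK9 differences of 23.3, 9.23 and 16.3 points become -2.03, 0.369 and 1.20 points, and the Ser2P difference goes from 15.4 to 26.7 points.

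Set against other Ser5P regions, gained gene-end regions stood differently in the 3 CDK9 sets. Any shared base counted as a peak in a region, and constant regions were wider (median 1789.5 bp against 747.5 bp). The part of width in the comparisons with constant regions was not tested. A CDK9 peak in both treated and neither DMSO list was present at 65 of them by ab239364 (12.0%; 13.5% of all gene-end regions) and at 37 by CST2316S (6.83%; 11.5%). In KARPAS422 it was present at 52 (9.59%; 6.89%), and 4 had the reverse (0.738%; 1.07%). Constant regions were at 20.8% by ab239364, 18.7% by CST2316S and 8.25% in KARPAS422. Regions gained over 1 kb from any gene end were at 19.7%, 28.9% and 10.0%. The change in the CST2316S share was 9.23 points at gained gene-end regions and 33.8 points at far gained regions, a gap of -24.6 points (exact two-sided permutation p = 0.33, the smallest possible; adjusted 1). At equal list length the far gained regions still differed by 7.24 points. By ab239364 the gap was -6.13 points (permutation p = 0.67, exact and two-sided). In KARPAS422 the changes were 16.3 and 16.1 points, a gap of 0.276 (exact two-sided permutation p = 1). Constant regions changed by 39.9 points by ab239364, 26.1 by CST2316S and 11.7 in KARPAS422, so that the change at gained gene-end regions was smaller by 16.5 and 16.9 points in SUDHL5 and larger by 4.66 in KARPAS422 (exact two-sided permutation p = 0.33 each; adjusted 0.58). At equal list length constant regions changed by -3.46, -1.74 and -7.19 points, each below the value at gained gene-end regions.

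**Figure D5:**
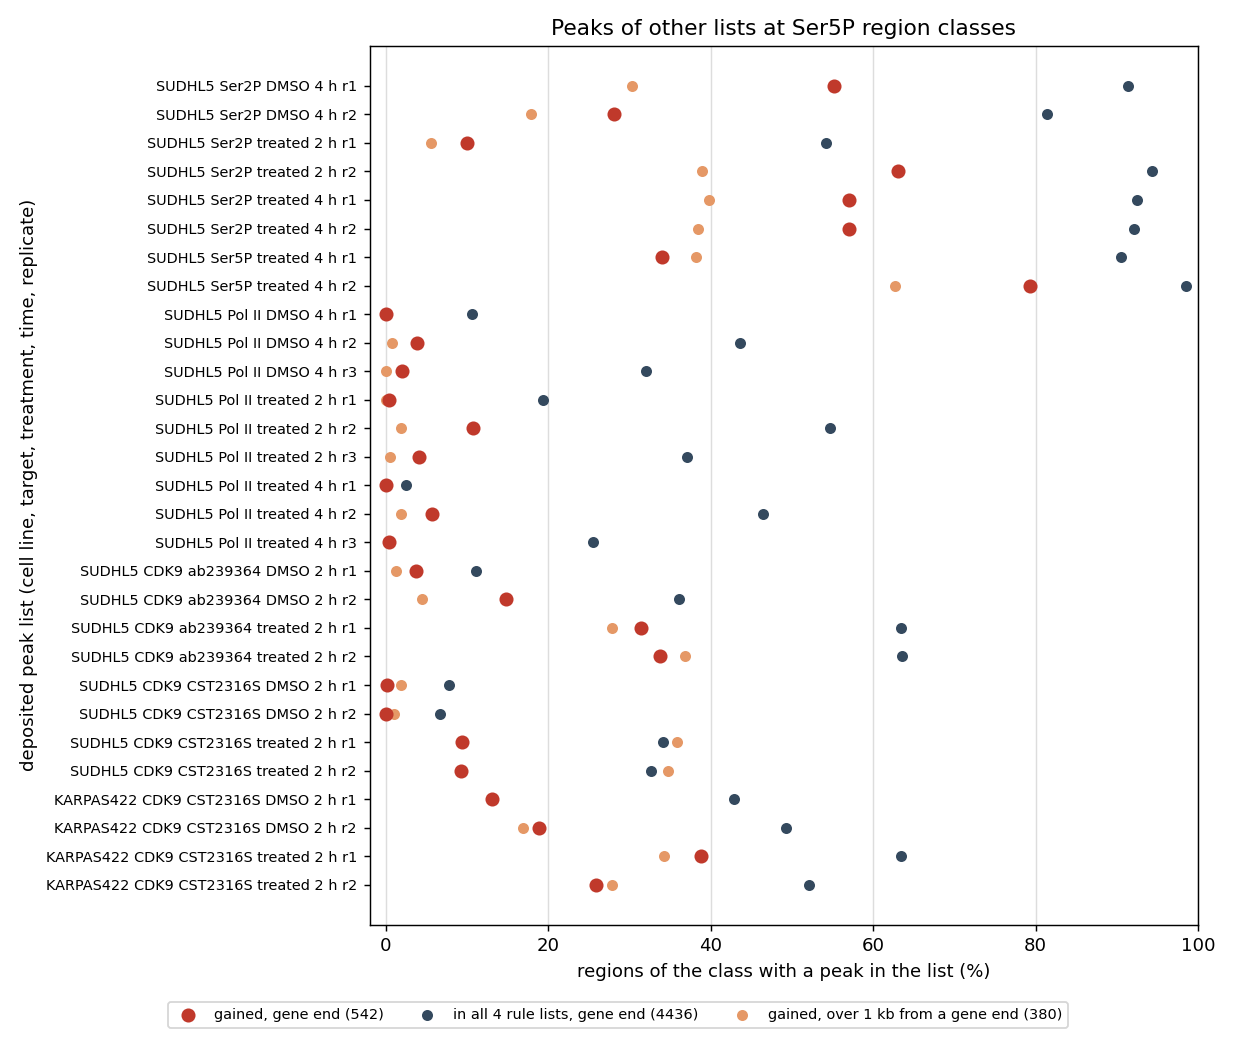
Share of regions with a peak (%, horizontal axis) in each of 29 other deposited lists (rows; r1 to r3 are replicates, treated is CDK-TCIP1) for gained gene-end, constant and far gained Ser5P regions. Gained gene-end regions (red) lie below constant regions in all 29 lists, and below far gained regions in all 4 CST2316S lists of SUDHL5, among others. Constant regions were wider (median 1789.5 bp against 747.5 bp), and the part of width in their shares was not tested.

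Of the 542 regions, 305 had a peak in none of the 4 treated SUDHL5 CDK9 lists (56.3%; 48.1% of all gene-end regions) and 22 in all 4 (4.06%; 13.7%). A gain of CDK9 by both antibodies was called at 19 (3.51%; 5.05% of all gene-end regions). The 10 best-ranked of these were at NUAK2, COL19A1, AUTS2, FNDC3A, REM2, RGCC, KAT2B, LIMD1, EID1 and MTX3/THBS4. RGCC, a regulator of the cell cycle that responds to complement (chr13:41457448-41459247), had Ser5P folds of 7.43 and 5.95 at 2 h and 6.12 and 6.72 at 4 h, and all 4 KARPAS422 lists held CDK9 there. KAT2B, the acetyltransferase PCAF (chr3:20039693-20040295), had folds of 4.19 and 7.06 at 2 h and a peak in 4 h replicate 2 alone, and lay 412 bp from a DMSO Ser5P peak. At NUAK2, COL19A1 and LIMD1 no KARPAS422 list held CDK9, and at AUTS2, EID1 and MTX3/THBS4 only both treated ones did. Of these 10 regions, REM2 lay at a gene stop, 7 at a known start and 2 at an end of unknown strand, and 9, all but KAT2B, were held by both 4 h Ser5P lists. The 10 were picked by 2 h rank, which itself went with 4 h peaks (45.6% in the best-ranked group, 21.3% in the worst-ranked). Among the 19, PSMC6 was also held by both 4 h lists, CENPF by 1 and TICRR by neither. The share over all 19 was not taken.

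The region held by the most of the 29 other lists, 16, was at GALNT4/POC1B (chr12:89524393-89526239). CDK6, RGCC, REM2, FERRY3/RAD51AP1, KIAA0586/TIMM9 and VTI1A/ZDHHC6 were among those held by 15. At the other extreme 8 gained regions were held by none, and the median was 6 lists. A DMSO peak of CDK9, Ser2P or Pol II was present in SUDHL5 at 363 of the 542. The longest of those lists, Ser2P replicate 1 (28951 peaks), held 299 of the 542 (55.2%). It also held 91.4% of constant, 89.6% of lost and 30.3% of far gained regions. The share of all gene-end regions with such a peak was not taken, so 363 is a description only. At CDK6 (chr7:92832667-92836021) the Ser5P folds were 5.85 and 5.00 at 2 h and 4.05 and 3.47 at 4 h, and CDK9 by ab239364 was in DMSO replicate 2 and both treated lists.

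Among 16 listed B-cell identity genes, such as MS4A1 and PAX5, all had a constant Ser5P region at an end and none had a gained one. Of 14 markers of T cells, myeloid cells and tissues outside blood, 2 had a DMSO Ser5P peak, 12 had no region and none had a gained one. Over all 19970 protein-coding genes, 3.21% had a gained region and 0.796% a lost one, and among the 1309 with a region and no DMSO peak at either end, 39.1% did.

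Among the known BCL6 targets with a gained region were CHEK1 and CXCR5. CHEK1, the checkpoint kinase of replication stress, had a region 404 bp from its start (chr11:125625540-125626289) with folds of 5.68 and 4.40 at 2 h and a peak in 4 h replicate 2 alone. Another region lay over the stop of CXCR5, a chemokine receptor of follicular B cells, and an end of BCL9L (chr11:118895049-118898078), with folds of 5.33 and 4.62. Of cell-cycle arrest genes 0 of 21 had a gained region, and 18 had a DMSO peak. Pro-apoptotic genes had 1 of 24, AIFM1, with folds of 4.02 and 3.28, and 17 had a DMSO peak. Anti-apoptotic genes had 0 of 10, NF-kB genes 0 of 17 and interferon response genes 0 of 24. One plasma-cell gene of 12 did: TNFRSF17, the receptor BCMA, with folds of 8.20 and 3.72, no 4 h peak, and CDK9 in both treated CST2316S lists of SUDHL5. Its region lay 848 bp from a DMSO peak.

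Immediate-early genes had 4 of 29 (13.8%), and 22 had a constant region. IER3, an early response gene of survival signalling, shared a region of 2810 bp with FLOT1 (chr6:30741821-30744630), with folds of 7.75 and 7.16 at 2 h and 6.26 and 6.38 at 4 h, 14578 bp from a DMSO peak. The other three lay beside DMSO peaks, 3 bp away at EGR3, 739 bp at ZFP36L2 and 596 bp at FOSB. At EGR3, a zinc finger factor, the folds were 5.68 and 3.12 at 2 h and 13.4 and 4.16 at 4 h. Of the transcription kinases and tail phosphatases 0 of 22 did. MXD4, a MAX partner that opposes MYC, was the one gene with 3 gained regions; 1 was held by both 4 h lists and the other two by neither. No other gene of the 21 in the MYC and growth list had one.

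Gained regions lay at more genes of the mitochondrial than of the cytoplasmic ribosome. Mitochondrial ribosomal proteins had gained regions at 10 of 77 genes (12.99%): MRPL27, MRPL39, MRPL37, MRPL14, MRPL16, MRPS2, MRPL22, MRPL50, MRPL54 and MRPL21. Of their regions, 9 lay within 1 kb of a known gene start, 7 were shared with another gene and 6 lay within 1 kb of 2 known starts. MRPL27, shared with the nuclease subunit gene EME1, had folds of 5.10 and 9.41 at 2 h and 4.16 and 8.28 at 4 h. It alone of the 10 was held by both 4 h lists; 8 were held by 1 and MRPL39 by neither. In SUDHL5, CDK9 by ab239364 was gained at 2 of the 10 and by CST2316S at 0. Cytoplasmic ribosomal proteins had 2 of 81, RPS25 and RPL28, and 80 of the 81 had a DMSO peak. Mitochondrial ribosomal genes had a DMSO peak at 58 of 77. Oxidative phosphorylation subunits had 6 of 82 (7.32%): NDUFA12, ATP5MF, NDUFS5, NDUFA9, COX6C and SDHD, each held by 1 of the 4 h lists. These shares are set beside the 3.21% of all genes as a description, since lists with more DMSO peaks have fewer genes that could gain one. Among genes with a region and no DMSO peak, 8 of 13 mitochondrial ribosomal and 4 of 10 oxidative phosphorylation genes had a gained one. Of all such genes 39.1% did.

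Proteasome genes had 3 of 40 (7.50%), PSMD2, PSMC6 and PSMD1, all at a gene start and held by both 4 h lists. PSMC6, an ATPase of the regulatory particle, had folds of 3.61 and 5.21 at 2 h, CDK9 in both treated lists of both antibodies in SUDHL5 and in all 4 KARPAS422 lists, and no Ser2P peak in any list. DNA repair and replication genes had 4 of 33 (12.1%): RPA2, with a region at each end, TICRR, FANCI and CHEK1. TICRR, which starts replication origins, had folds of 4.62 and 3.82 at 2 h, no 4 h peak, and gained CDK9 with both antibodies in SUDHL5 and with CST2316S in KARPAS422. Mitosis genes had 2 of 22, BUB1 and CENPF. In SUDHL5 both gained CDK9 by ab239364, and CENPF also by CST2316S. Splicing genes had 2 of 59, SRSF1 and SRSF8, and replication-dependent histones 0 of 74. The SRSF1 region lay at the stop of that gene, was shared with the start of VEZF1 and was 421 bp from a DMSO peak. Zinc finger genes had 19 of 518 (3.67%), solute carriers 16 of 398 (4.02%) and transmembrane protein genes 8 of 233 (3.43%), beside 3.21% of all genes. No Ser5P region lay at 272, 237 and 115 of these genes, which lowers such shares. Among genes with a region and no DMSO peak, 17 of 55, 16 of 28 and 7 of 18 had a gained one, against 39.1% of all such genes. The 3 best-ranked of the first were ZNF572, ZNF18 and ZNF852, of the second SLC25A12, SLC35C1 and SLC49A4, and of the last TMEM209, TMEM260 and TMEM219.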

How the data were processed

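Peak lists of 33 chromatin immunoprecipitation samples were used; the 10 input libraries have no list here. The submitters' processing notes name MACS2, Bowtie2, Trim Galore, FastQC, Picard, SAMtools, deepTools and bedtools and the builds hg38 and dm6, without versions; controls and filters of the peak calls were not given in the sources used here. Each list holds the authors' fold enrichment (a ratio), -log10 q and -log10 p per peak, none scaled between lists, and these served only to rank or filter within a list. No file gives read totals, so depth is unknown. Of all deposited peaks, 25 on other contigs were left out.

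Regions were merged with Python 3.11.15 (pandas 2.3.3, numpy 2.4.6) and set against 19970 protein-coding RefSeq genes of GRCh38.p14; strand was known for 15812. A list held a region when a peak shared at least 1 bp with it. The mean percent of regions held was compared between groups of lists by exact two-sided permutation, with Benjamini-Hochberg adjustment over 7 comparisons. Gain and loss calls per region have no test. The code was tested on simulated data.

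Replicate numbers of Pol II were taken as pairs at 2 h, since same-numbered lists deviated together from their group means over gene-end regions (correlations 0.360, 0.236 and 0.120). The labels name no pairs. In each Pol II group replicate 1 was the shortest list and replicate 2 the longest, and the part of list length in these correlations was not tested. The regions, gene lists, motifs and naming rule were chosen with earlier results of these data known. Named were the 15 best-ranked regions, the 5 widest, the 10 held by most lists, the 10 best-ranked gained in both SUDHL5 CDK9 sets, members of the gene lists (the 3 best for lists made by symbol stem) and 3 regions on each side of each limit; genes of the gene lists beyond these 3 were added after their values were seen. Alternatives were a stricter q, 50% cover, equal list lengths, a 2.5 kb window, summits, gene starts only, merging the 4 h lists, Ser2P over whole genes, replicate blocks and leaving out each list; leaving out regions within 2 kb of a DMSO peak was added after the data were seen. Results at a few of the named genes are not reported here.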

Additional observations from a re-analysis of the deposited data

How the results depend on the processing

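The number of gained regions depended on each of the 4 lists behind the rule: it was 852 to 1460 when 1 of them was left out, and 1044 when peaks had to cover 50% of a region. The share held by both 4 h lists was 18.1% to 49.0% when 1 of these 4 was left out, which also changed the regions. For the 542 regions it was 33.9% with 4 h replicate 1 alone and 79.3% with 4 h replicate 2 alone. With equal list lengths the CDK9 change by ab239364 was -2.03 points in place of 23.3; it kept its direction under the 17 other alternatives, as the other 2 CDK9 changes did under all 18 and Ser2P at 4 h under all 19. At equal length the other 2 CDK9 changes were 0.369 points in SUDHL5 and 1.20 in KARPAS422. With Ser2P counted over the whole gene and 2 kb on each side, its change was 9.13 points at 4 h (permutation p = 1, exact) and -12.2 at 2 h. The Ser2P change at 2 h, -5.07 points, became 2.55 with a -log10 q of at least 5, 5.65 with 50% cover and 8.21 with equal list lengths, and ran from -31.6 to 21.5 when 1 list was left out. The Pol II change at 4 h, 0.0615 points, became -0.087 with the stricter q, -0.227 with equal Ser5P list lengths, -0.0766 at gene starts only and -0.0615 with equal Pol II list lengths, and ran from -1.78 to 1.08 when 1 list was left out. The Pol II change at 2 h kept its direction under all 20, but with equal Pol II list lengths it was 0.184 points in place of 3.08. The cause was not tested. With a replicate block the permutation p was 0.5 for the CDK9 sets and for Ser2P at 4 h, 1 for Ser2P and Pol II at 2 h and 4 h respectively, and 0.25 for Pol II at 2 h; these pairings changed no call. Outside Pol II at 2 h the numbers were not taken as pairs. Same-numbered lists had correlations of -0.0394 to 0.0534 in the sets of 2. For Pol II at 4 h they were 0.461, 0.297 and 0.0773. Replicates 1 and 2 thus stood above their values at 2 h, and these correlations do not set the 2 times apart. No test of 2 lists against 2, or of 3 against 3, could reach 0.05, so a side of the threshold kept says nothing about stability. Depth is unknown, so a missing peak is not shown to be a missing signal.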
